A study of Mus musculus with 22 samples.

Results

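Solute carriers of the sugar, monocarboxylate and organic solute families were followed in ribosome-bound RNA at 7 and 30 days after microbead injection. The RNA was pulled down to enrich for optic nerve astrocytes. The members are the protein coding genes whose symbol begins with Slc2a, Slc5a, Slc13a, Slc15a, Slc16a, Slc19a, Slc22a, Slc28a, Slc29a, Slc44a, Slc45a, Slc47a or Slco, which gave 95 genes of the 29367 in the count table. The largest families were Slc22a with 17 genes, Slc16a with 14, Slc5a with 12, and Slc2a and Slco with 11 each. Of the 95 genes, 48 had more than 3 counts in all 22 libraries and 11 never exceeded 3 counts. The filter on low counts let 72 genes into at least 1 comparison, and 23 were never tested.

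The mice were Rpl22 HA/HA, Cre+ and are given as WT in the genotype label. They descend from ribotag animals (B6J.129(Cg)-Rpl22tm1.1Psam/SjJ) and the GFAP-Cre line 73.12, in which the mouse GFAP promoter drives Cre constitutively, so that ribosomes of Cre-expressing cells carry an HA tag by which their RNA was pulled down. They were 3 to 4 months old. Every group received microbeads in 1 eye to raise intraocular pressure, so all values come from injected eyes, and uninjured samples were not analysed here. A library was made from a pool of 4 animals (2 males and 2 females). The 4 groups were the unmyelinated optic nerve head (ONH) and the myelinated optic nerve proper (ONP) at 30 days (n = 7 libraries each) and at 7 days (n = 4 each). The ONH and ONP of a pool came from the same mice. Libraries held 16292489 to 33307092 counts, and 3 counts, taken as the limit of detection, corresponded to 0.0901 to 0.184 CPM (counts scaled to the size of the library), which covers counting error only.

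These carriers move fuels, osmolytes, vitamins, nucleosides, hormones and drugs across cell membranes. GLUT proteins of the Slc2a family let hexoses pass down their gradient, while Slc5a proteins couple uptake to sodium. Monocarboxylate transporters of the Slc16a family carry lactate, pyruvate and ketone bodies together with protons, and astrocytes and oligodendrocytes are known to pass lactate to axons through them. Organic anion transporting polypeptides (Slco) and the Slc22a family handle thyroid hormone, bile acids, carnitine and drugs, and several of them are known from the blood-brain barrier, the meninges and the retinal pigment epithelium.

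The libraries were first examined for other cell types. The summed level of 12 astrocyte markers was between 19095 and 44167 CPM in every library, and 0 of the 12 were at 0 in any group. Transcripts of other cells were present as well. The 12 oligodendrocyte markers summed to 13493 to 41242 CPM in the ONH, to 81855 to 107277 CPM in the ONP at 7 days, and to 25661 to 84053 CPM in the ONP at 30 days. In the ONP at 7 days the 12 astrocyte markers summed to 21533 to 29809 CPM, below the oligodendrocyte sum in every library. The oligodendrocyte sum was also above the astrocyte sum in most ONP libraries at 30 days and in some ONH libraries. Some libraries stood apart. In the ONH, library 6 at 7 days had the highest sums of photoreceptor (6214 CPM) and pigment cell markers (1060 CPM), and with library 5 it had the highest endothelial sums (620 CPM each). Library 4 at 30 days had 2743 CPM of photoreceptor markers, and library 7 at 30 days had 7022 CPM of microglial and 225 CPM of pituitary markers. In the ONP at 30 days, libraries 5 and 7 had 5896 and 7646 CPM of microglial markers. In pooled tissue fewer cells of a type and less RNA per cell cannot be told apart. Values without these 6 libraries are given beside the results that depend on them. In the ONP at 30 vs 7 days only the ONP libraries among them were left out. In all other comparisons only the ONH libraries among them were left out. ONP libraries 5 and 7, with their high microglial sums, therefore stayed in ONH vs ONP at 30 days. Libraries were taken from the ONH side only there, so these values are not an even check of both regions.

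**Figure D1:**
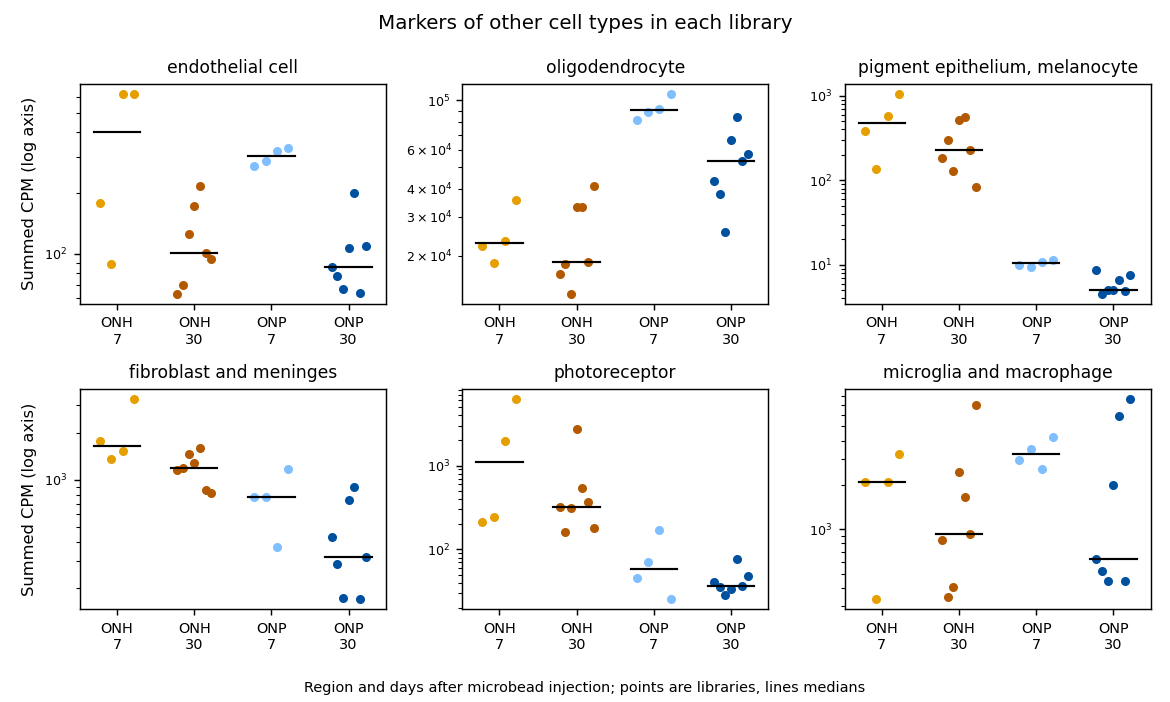
Summed CPM (log axis) of marker genes of 6 other cell types in each of the 22 libraries, by region and days after injection, with points for libraries and lines for medians. Pigment cell markers were between 84.0 and 1060 CPM in the ONH and between 4.55 and 11.3 CPM in the ONP, and endothelial markers in the ONP were between 273 and 333 CPM at 7 days and between 63.7 and 200.3 CPM at 30 days.

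The most abundant carriers were compared per kilobase of exon, since counts grow with transcript length. Slc16a1, which encodes the lactate transporter MCT1, had the highest mean over all libraries (128 CPM per kb). It was followed by the sulfate transporter Slc13a4 (64.0 CPM per kb), the choline transporter-like gene Slc44a1 (62.8 CPM per kb), the brain organic cation carrier Slc22a17 (57.2 CPM per kb) and Slc2a1, which encodes the glucose transporter GLUT1 (53.2 CPM per kb). Slc22a4 and Slc22a5, which encode the ergothioneine and carnitine carriers OCTN1 and OCTN2, reached 30.7 and 13.9 CPM per kb. Slco3a1 reached 23.5, Slc44a2 18.2, Slc2a8 12.6 and the lysosomal peptide and histidine carrier Slc15a4 10.1 CPM per kb. A few genes made up most of each class. Slc16a1 accounted for 66.0% to 83.6% of the summed level per kb of the 14 monocarboxylate transporters, depending on the group, Slc13a4 for 91.5% to 95.9% of the 5 Slc13a genes, and Slc2a1 for 46.0% to 56.9% of the 27 genes of the Slc2a, Slc5a and Slc45a families.

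**Figure D2:**
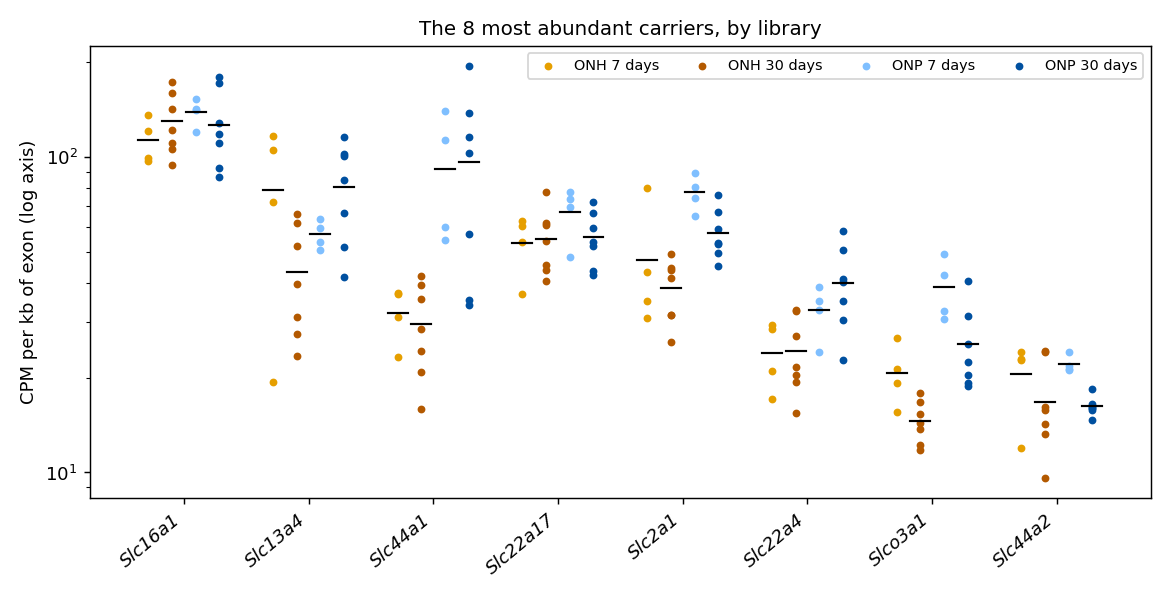
Level of the 8 most abundant carriers as CPM per kb of exon (log axis), with a point for each library, colours for the 4 groups and black lines for group means. Slc16a1 was the highest on average (128 CPM per kb), and the group means of Slc44a1 were higher in the ONP than in the ONH at each day.

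Slc16a1 did not pass the test in any comparison. In the ONH its level was 441, 536, 604 and 432 CPM in the 4 libraries at 7 days and ran from 418 through a median of 541 to 764 CPM at 30 days. In the ONP it was 625.4, 629.8, 678 and 533 CPM at 7 days and ran from 384 through 524 to 794 CPM at 30 days. All 4 groups overlapped. Its log2 fold change (log2FC) between ONH and ONP was 0.03 at 30 days (95% interval -0.33 to 0.39) and -0.27 at 7 days (95% interval -0.59 to 0.04). The glucose transporter gene of neurons Slc2a3 (GLUT3) and Slc22a17 did not pass the test in any comparison either.

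ONH vs ONP was compared at each day to ask which carriers differ between the unmyelinated and the myelinated region. At 30 days, edgeR's quasi-likelihood test with Benjamini-Hochberg adjustment over all genes called 34 of the 65 carriers tested (adjusted p-value under 0.05), where 41.8% of all genes were called. Of these, 10 were higher in the ONH (background 21.8%) and 24 were lower (background 20%). At 7 days it called 14 of 66 carriers, with a background of 13.2%, 7 of them higher in the ONH (background 6.34%) and 7 lower (background 6.81%). The median log2FC of the carriers was -0.31 at 30 days, compared with -0.01 for all genes, and -0.07 at 7 days, compared with 0.07. The median at 7 days had no stable sign, with -0.35 without ONH library 6, 0.08 without ONH library 5 and 0.05 when scaled by library size alone. All 14 carriers called at 7 days were also called at 30 days in the same direction, and they made up 14 of the 34 calls at 30 days. The same overlap was not counted over all genes, of which 41.8% were called at 30 days. It is therefore not known whether this overlap is particular to the carriers. These comparisons share no libraries. At 30 days, ONH and ONP libraries of the same number were taken as pairs, which the labels do not state. In these pairs, 29 of the 34 called carriers had the called direction in 7 of 7, and the other 5 in 6 of 7. The calls were made on the same libraries, so this is not separate support for them.

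**Figure D3:**
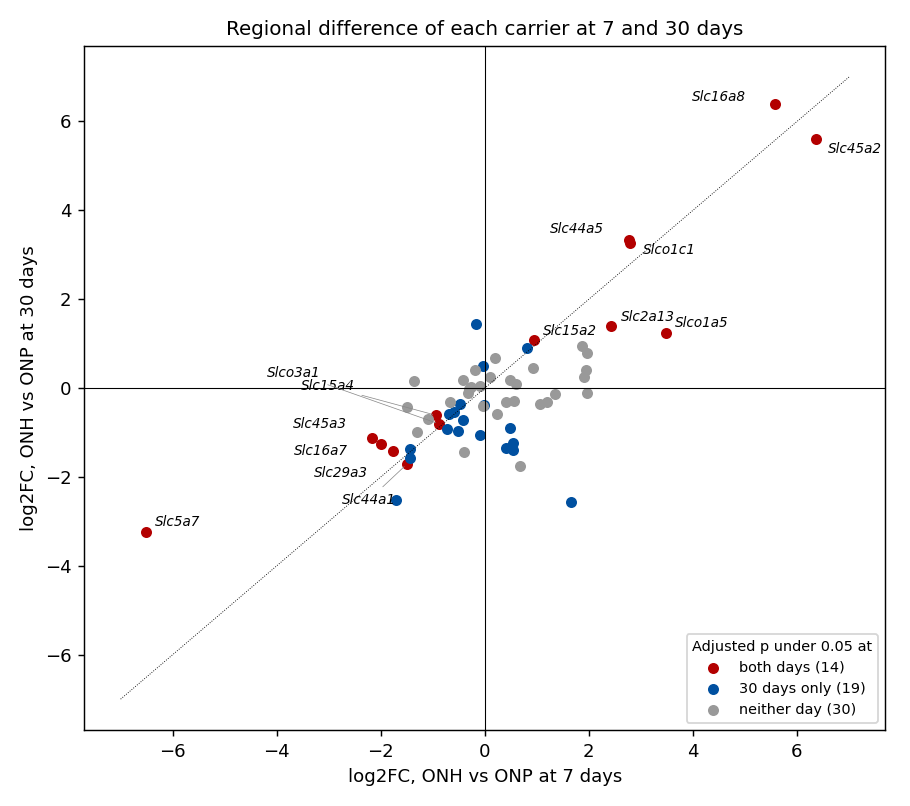
Log2FC of ONH vs ONP at 7 days (horizontal axis) and at 30 days (vertical axis) for the 63 carriers tested at both days, coloured by the days at which the adjusted p-value was under 0.05, with a dotted line of equality. The 14 carriers called at both days lie in the upper right and lower left, 19 were called at 30 days only, and the fitted log2FC of Slc5a7 at 7 days rests on 1 count in the ONH.

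Of the 7 carriers that were higher in the ONH at both days, Slco1c1 and Slc44a5 were separated without overlap at each day. Slco1c1 encodes OATP1C1, a high affinity transporter of thyroxine known from astrocytes and brain endothelium. At 7 days Slco1c1 was at 56.9, 64.4, 47.4 and 85.2 CPM in the ONH and at 9.08, 7.19, 8.17 and 12.5 CPM in the ONP. At 30 days it ran from 16.9 through a median of 25.2 to 56.5 CPM in the ONH and from 1.86 through 3.47 to 6.70 CPM in the ONP. The ONH libraries lay above all ONP libraries at each day, with a log2FC of 2.80 ± 0.26 (SE, adjusted p-value 0.000224, edgeR) at 7 days and 3.26 ± 0.36 (adjusted p-value 6.44e-06) at 30 days. Within the ONH at 30 days, libraries 1 to 3 held 50.7 to 56.5 CPM and libraries 4 to 7 held 16.9 to 25.2 CPM, although the labels name no batch. The log2 ratio of ONH to ONP (CPM plus 0.5) was between 2.43 and 3.76 in the 7 pairs.

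Slc44a5, a member of the choline transporter-like family, was at 23.3, 28.2, 14.5 and 22.6 CPM in the ONH at 7 days and at 3.37, 4.33, 3.86 and 1.57 CPM in the ONP. By 30 days Slc44a5 ran from 15.9 through 26.3 to 31.1 CPM in the ONH and from 1.46 through 2.12 to 4.64 CPM in the ONP. The regions did not overlap at either day, with a log2FC of 2.78 ± 0.37 (adjusted p-value 0.00103, edgeR) at 7 days and 3.32 ± 0.27 (adjusted p-value 3.42e-07) at 30 days. Without the ONH libraries that stood apart, the log2FC of Slc44a5 was 2.97 and 3.37, and that of Slco1c1 was 2.71 and 3.47.

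Slc16a8 and Slc45a2 had the largest log2FC toward the ONH at both days. Slc16a8 encodes MCT3, a lactate transporter known from the basolateral membrane of the retinal pigment epithelium, and Slc45a2 encodes a melanosomal carrier needed for pigmentation. Slc16a8 was at 45.9, 8.56, 74.2 and 105 CPM in the ONH at 7 days and at 0.429, 1.97, 0.698 and 1.76 CPM in the ONP. Slc16a8 at 30 days ran from 6.69 through 9.26 to 99.8 CPM in the ONH and from 0 through 0.320 to 0.788 CPM in the ONP. Every ONH library was above every ONP library, with a log2FC of 5.59 ± 0.77 (adjusted p-value 0.00117, edgeR) at 7 days and 6.39 ± 0.81 (adjusted p-value 2.4e-05) at 30 days. Without the ONH libraries that stood apart the log2FC was 4.47 and 5.66.

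Slc45a2 was at 7.01, 3.74, 6.96 and 14.7 CPM in the ONH at 7 days, while the ONP had 0.429 CPM in 1 library and was listed at 0 in 3. At 30 days it ran from 2.05 through 3.06 to 16.5 CPM in the ONH and from 0 through 0.131 to 0.292 CPM in the ONP. The log2FC was 5.61 ± 0.65 at 30 days (adjusted p-value 1.17e-05, edgeR), and the test at 7 days gave an adjusted p-value of 0.00544. The markers of retinal pigment epithelium and melanocytes moved in the same way. Of these 9 genes, 8 were called higher in the ONH at 30 days and 7 at 7 days, their sum was 84.0 to 1060 CPM in the ONH and 4.55 to 11.3 CPM in the ONP, and their part in the values of Slc16a8 and Slc45a2 was not tested.

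The other 3 carriers higher in the ONH at both days differed less. The proton and myo-inositol symporter Slc2a13 had a log2FC of 2.43 ± 0.59 at 7 days (adjusted p-value 0.021, edgeR) and 1.39 ± 0.38 at 30 days (adjusted p-value 0.00765). Its ONH libraries held 27.1, 8.79, 6.56 and 4.94 CPM at 7 days against 3.62, 2.16, 1.60 and 1.57 CPM in the ONP. At 30 days the regions overlapped, with 7.51 to 11.3 CPM in ONH libraries 1 to 3 and 2.95 to 3.85 CPM in libraries 4 to 7. Slc15a2, which encodes the astrocyte peptide transporter PEPT2, was at 17.3, 17.1, 27.2 and 23.3 CPM in the ONH and at 12.6, 13.6, 9.98 and 8.66 CPM in the ONP at 7 days (log2FC 0.94 ± 0.26, adjusted p-value 0.0387, edgeR). At 30 days its log2FC was 1.07 ± 0.27 (adjusted p-value 0.00466). The organic anion transporter Slco1a5 held 1.99, 4.82, 5.19 and 2.86 CPM in the ONH and 0.184, 0, 0.657 and 0.450 CPM in the ONP at 7 days, with a log2FC of 3.48 ± 0.88 (adjusted p-value 0.0266, edgeR) and of 1.25 ± 0.39 at 30 days (adjusted p-value 0.0183). Slco1a5 lies beside its close relatives Slco1a4 and Slco1a6 on chromosome 6, so the split of reads among them is uncertain. Without ONH libraries 5 and 6, the calls of Slc15a2 (adjusted p-value 0.168) and Slco1a5 (adjusted p-value 0.0748) at 7 days were lost, and that of Slc2a13 was kept (log2FC 3.004).

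**Figure D4:**
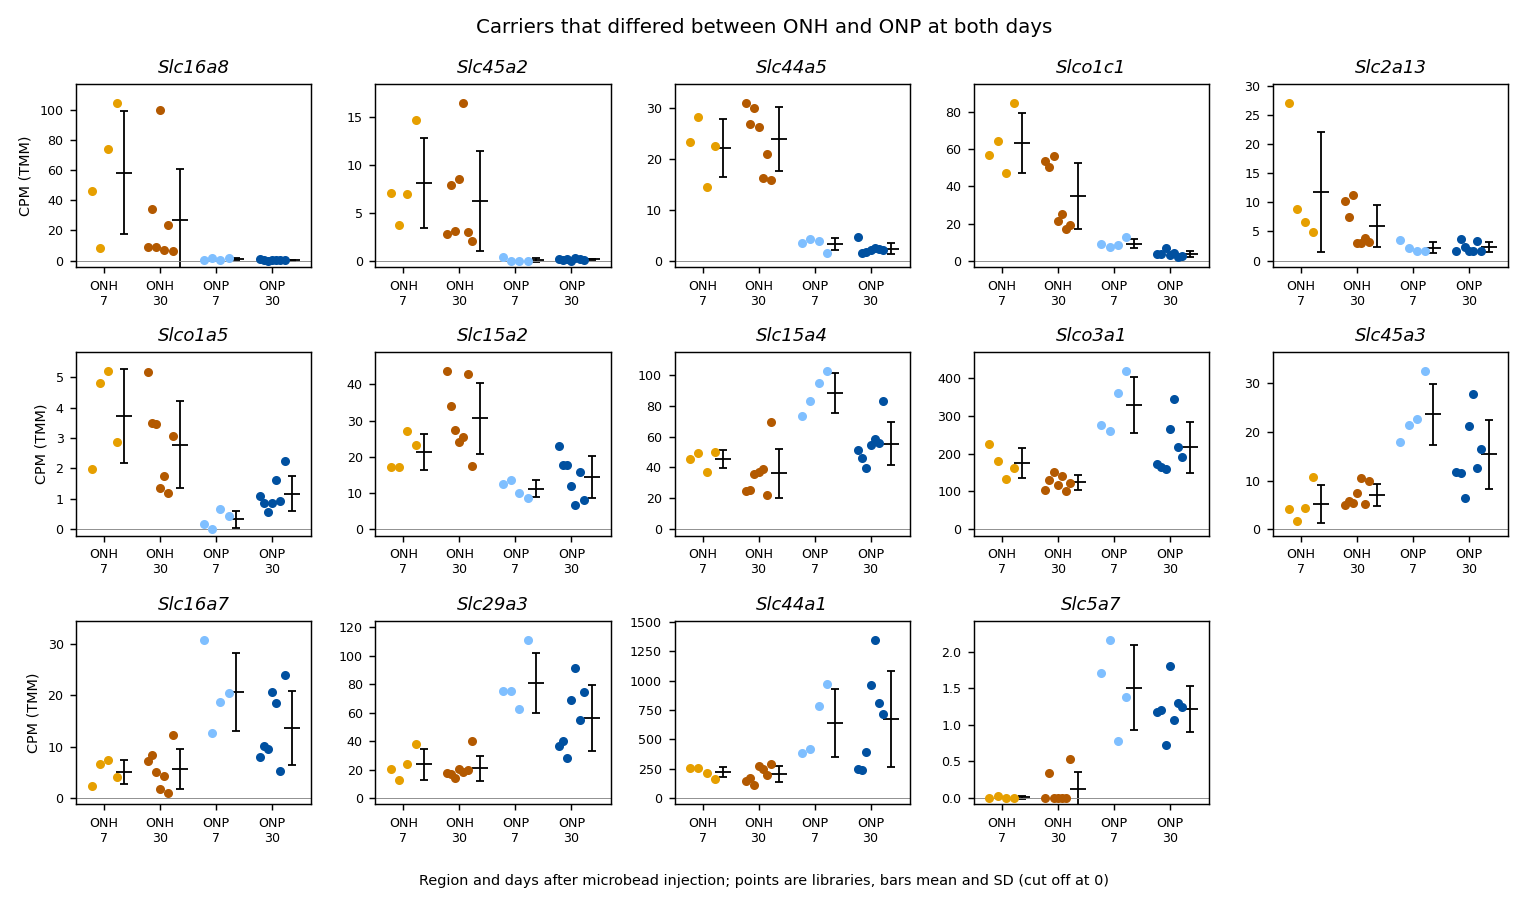
CPM of the 14 carriers that differed between ONH and ONP at both days, 1 panel each, by region and days after injection, with a point for each library and a bar for mean and SD cut off at 0. Slco1c1, Slc44a5, Slc16a8 and Slc45a2 were higher in every ONH library than in any ONP library of the same day, and Slc44a1 and Slc5a7 were higher in the ONP.

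Among the 7 carriers that were lower in the ONH at both days, Slc44a1 was the most abundant. Slc44a1, or CTL1, takes up choline for membrane phospholipids and is known to be strongly expressed in oligodendrocytes. It was at 256, 257, 217 and 162 CPM in the ONH at 7 days and at 380.1, 418, 787 and 972 CPM in the ONP. Slc44a1 at 30 days ran from 110.2 through 199 to 293 CPM in the ONH and from 236 through 718 to 1347 CPM in the ONP. The log2FC was -1.498 ± 0.31 at 7 days, when the regions did not overlap (adjusted p-value 0.00985, edgeR), and -1.71 ± 0.37 at 30 days, when they did (adjusted p-value 0.00157). In the ONP at 30 days Slc44a1 was at 236 to 395 CPM in libraries 1 to 3 and at 718 to 1347 CPM in libraries 4 to 7, while the oligodendrocyte markers summed to 25661 to 43447 CPM and 53408 to 84053 CPM in the same libraries.

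Oligodendrocyte markers were also lower in the ONH, with 10 of 12 called at 30 days and 12 of 12 at 7 days. Slc45a3, a proton-coupled sugar carrier known from oligodendrocytes, held 4.20, 1.68, 4.34 and 10.8 CPM in the ONH and 17.9, 21.5, 22.8 and 32.5 CPM in the ONP at 7 days. Its log2FC was -2.17 ± 0.49 at 7 days (adjusted p-value 0.0154, edgeR) and -1.13 ± 0.29 at 30 days (adjusted p-value 0.00541). In the annotation, 13.5% of the exon length of Slc45a3 overlaps the gene model Gm29103, so its counts are less certain. The part of oligodendrocyte transcripts in the values of Slc44a1 and Slc45a3 was not tested.

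Slc5a7, the high affinity choline transporter of cholinergic neurons, was near the limit of detection. It was at 1.72, 2.16, 0.780 and 1.39 CPM in the ONP at 7 days, and the ONH held 1 count in 4 libraries against 118 counts in the ONP, a ratio of 114 (exact 95% interval 20.04 to 4535, for counting error only). At 30 days it ran from 0.726 through 1.201 to 1.80 CPM in the ONP and was listed at 0 in 5 of 7 ONH libraries, with 0.345 and 0.540 CPM in the other two. The adjusted p-value was 0.00224 at 7 days and 0.00575 at 30 days (edgeR).

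Slc29a3, a nucleoside transporter of lysosomes and mitochondria, was at 20.1, 12.5, 23.9 and 38.0 CPM in the ONH and at 75.5, 74.9, 62.4 and 111 CPM in the ONP at 7 days (log2FC -1.76 ± 0.32, adjusted p-value 0.00521, edgeR), and its log2FC at 30 days was -1.42 ± 0.28 (adjusted p-value 0.000764). Slc15a4 was at 45.8, 49.2, 36.9 and 50.1 CPM in the ONH and at 73.2, 82.8, 94.5 and 102 CPM in the ONP at 7 days (log2FC -0.94 ± 0.18, adjusted p-value 0.00648), with a log2FC of -0.61 ± 0.24 at 30 days (adjusted p-value 0.0474). Both are carriers of the endolysosomal membrane, and both were separated without overlap at 7 days and overlapped at 30 days. Slco3a1, which carries prostaglandins and thyroxine, was at 226, 181, 132 and 163 CPM in the ONH and at 276, 260.4, 359.5 and 417 CPM in the ONP at 7 days. It had a log2FC of -0.88 ± 0.21 at 7 days (adjusted p-value 0.0214, edgeR) and -0.80 ± 0.17 at 30 days (adjusted p-value 0.00148), and Slc16a7, the pyruvate and lactate transporter MCT2, of -1.995 ± 0.41 (adjusted p-value 0.00998) and -1.26 ± 0.48 (adjusted p-value 0.0459). At 30 days the call of Slc16a7 held in 13 of 23 settings and that of Slc15a4 in 12 of 23. No ONH library of Slco3a1 reached the lowest ONP library of the same day. Slco3a1 lost its call at 7 days without ONH libraries 5 and 6 (adjusted p-value 0.0681).

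Promoter sequences are shown for 5 carriers called in the same direction at both days, so that regions upstream of genes higher in the ONH (Slco1c1, Slc44a5, Slc16a8) can be read beside those of genes higher in the ONP (Slc44a1, Slc5a7). They are RefSeq windows of the GRCm38.p6 assembly from 250 bases before to 50 bases after the annotated start, given 5′ to 3′ on the strand of the gene. Capitals mark matches on either strand to 3 motifs, the GC box GGGCGG, the TATA box TATAAA and the E-box CACGTG. GC box matches can overlap each other, as in Slc44a1. The windows lie at chr6:141524104-141524403 (plus strand), chr3:153973186-153973485 (plus), chr15:79254699-79254998 (minus), chr4:53440163-53440462 (plus) and chr17:54298985-54299284 (minus).
Slco1c1: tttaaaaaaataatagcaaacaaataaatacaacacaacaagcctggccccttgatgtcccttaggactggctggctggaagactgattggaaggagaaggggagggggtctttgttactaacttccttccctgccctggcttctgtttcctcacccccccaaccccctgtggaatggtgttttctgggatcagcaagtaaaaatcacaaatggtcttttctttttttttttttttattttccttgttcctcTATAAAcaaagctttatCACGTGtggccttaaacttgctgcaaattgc
Slc44a5: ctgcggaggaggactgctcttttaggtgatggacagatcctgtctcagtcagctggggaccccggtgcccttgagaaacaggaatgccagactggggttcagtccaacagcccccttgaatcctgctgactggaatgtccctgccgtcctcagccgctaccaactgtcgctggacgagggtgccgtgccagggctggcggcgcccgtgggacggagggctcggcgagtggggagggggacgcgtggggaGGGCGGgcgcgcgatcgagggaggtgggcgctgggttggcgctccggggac
Slc16a8: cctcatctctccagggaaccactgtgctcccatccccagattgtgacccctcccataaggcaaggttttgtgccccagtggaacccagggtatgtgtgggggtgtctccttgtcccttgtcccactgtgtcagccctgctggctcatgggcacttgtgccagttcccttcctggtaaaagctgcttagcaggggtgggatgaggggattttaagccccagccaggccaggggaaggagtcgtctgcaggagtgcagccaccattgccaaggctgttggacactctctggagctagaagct
Slc44a1: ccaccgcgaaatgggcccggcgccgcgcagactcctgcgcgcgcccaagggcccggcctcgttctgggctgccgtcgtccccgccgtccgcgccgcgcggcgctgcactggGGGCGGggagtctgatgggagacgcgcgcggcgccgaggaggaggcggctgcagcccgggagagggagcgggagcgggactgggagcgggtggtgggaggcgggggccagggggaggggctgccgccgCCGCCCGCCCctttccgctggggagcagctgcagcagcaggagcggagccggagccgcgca
Slc5a7: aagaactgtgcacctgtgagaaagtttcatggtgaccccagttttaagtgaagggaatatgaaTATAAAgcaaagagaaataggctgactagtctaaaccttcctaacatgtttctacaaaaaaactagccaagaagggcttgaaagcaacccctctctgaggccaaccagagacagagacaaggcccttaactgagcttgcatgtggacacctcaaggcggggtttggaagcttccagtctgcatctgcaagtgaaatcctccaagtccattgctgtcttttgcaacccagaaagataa

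Windows were found for 76 of the 95 carriers and for 11 of the 14 called at both days. Of all 32851 promoter windows, 35.7% held the GC box, 13.6% the TATA box and 7.15% the E-box. The counts that follow are per gene, with a match in any of its windows. Counted in this way, the GC box was in 41 of the 76 carriers, the TATA box in 12 and the E-box in 7. The GC box was in 3 of the 6 carriers higher in the ONH that had a window (Slc15a2, Slc2a13 and Slc44a5) and in 4 of the 5 lower ones (Slc15a4, Slc29a3, Slc44a1 and Slc45a3). The TATA box was in 2 of the 6 (Slco1a5 and Slco1c1) and 2 of the 5 (Slc45a3 and Slc5a7), and the E-box was in Slco1c1 alone. The window of Slc44a1 was 79.7% G and C and that of Slco1c1 42.0%. These matches are a description of the letters, not of binding.

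The Slc2a, Slc5a and Slc45a families hold most of the sugar transporters, and also carriers of other solutes such as iodide (Slc5a5), vitamins (Slc5a6) and choline (Slc5a7). Of their 19 genes tested at 30 days, 3 were called higher in the ONH (21.8% of all genes were) and 10 lower (20% of all genes were), with a median log2FC of -0.59, and at 7 days 2 were called higher and 2 lower. Slc2a4, which encodes the insulin-responsive transporter GLUT4, ran from 0.588 through 1.46 to 2.00 CPM in the ONH and from 4.12 through 7.48 to 10.1 CPM in the ONP at 30 days. The regions did not overlap, and the log2FC was -2.52 ± 0.32 (adjusted p-value 2.22e-05, edgeR). At 7 days Slc2a4 was at 2.70, 0.389, 0.114 and 1.964 CPM in the ONH and at 3.92, 4.01, 7.23 and 1.95 CPM in the ONP, which did not pass (log2FC -1.71, adjusted p-value 0.21). Slc2a1 ran from 91.0 through 146 to 173 CPM in the ONH and from 159 through 187 to 267 CPM in the ONP at 30 days, with a log2FC of -0.59 ± 0.16 (adjusted p-value 0.00711, edgeR). At 7 days Slc2a1 was at 152, 109, 123 and 281 CPM in the ONH and at 283, 261, 229 and 313 CPM in the ONP (log2FC -0.69, adjusted p-value 0.126), and without ONH libraries 5 and 6 the difference passed (log2FC -1.06, adjusted p-value 0.00786).

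Other genes of the sugar carrier families called at 30 days were Slc45a1 (log2FC -1.57), the iodide symporter Slc5a5 (-1.40), the inositol transporter Slc5a11 (-1.38), Slc2a12 (-1.23), the multivitamin transporter Slc5a6 (-0.97) and Slc2a8 (-0.35), all lower in the ONH, and the sodium and myo-inositol transporter Slc5a3, which was higher (0.50 ± 0.18, adjusted p-value 0.0325, edgeR). The call of Slc5a3 held in 14 of 23 settings and was lost with limma-voom. The pathway lists below are small, and their counts stand beside the same 21.8% higher and 20% lower over all genes at 30 days. Of 11 genes listed as partners in glucose uptake and trapping, 10 were tested at 30 days, with the hexokinase gene Hk2 higher in the ONH (log2FC 1.86 ± 0.26, adjusted p-value 6.07e-05) and Hk1 (-0.78), the glycogen synthase gene Gys1 (-0.93) and the glycogen phosphorylase gene Pygb (-0.90) lower. At 7 days Hk2 alone passed (log2FC 1.501). Of 9 genes of osmolyte and myo-inositol handling, 8 were tested and 3 were higher in the ONH at 30 days, namely the aldose reductase gene Akr1b3 (0.42), Impa1 (0.41) and the taurine transporter gene Slc6a6 (0.44), with 0 calls at 7 days.

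Of the 12 monocarboxylate transporter genes tested at 30 days, Slc16a8 was called higher, and Slc16a14 (log2FC -2.01), the creatine transporter Slc16a12 (-1.34) and Slc16a7 (-1.26) were called lower in the ONH. Slc16a14 was at or below 1.77 CPM in every library of both regions. Of 6 tested genes that encode partners of these transporters or lactate dehydrogenases, 3 were higher in the ONH at 30 days, the chaperone genes Bsg (0.83 ± 0.10, adjusted p-value 1.95e-05, edgeR) and Nptn (0.48) and Ldha (0.84), and Ldhd, which encodes a dehydrogenase of D-lactate, was lower (-0.998). Ldha was also higher at 7 days (log2FC 0.78).

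Slc13a4 and Slc13a5 differed in opposite directions at 30 days. Slc13a4 ran from 106 through 179.9 to 299 CPM in the ONH and from 188 through 384 to 525 CPM in the ONP (log2FC -0.90 ± 0.27, adjusted p-value 0.0154, edgeR), a call that was lost without ONH libraries 4 and 7 (adjusted p-value 0.0572). The citrate transporter Slc13a5 ran from 2.38 through 4.13 to 14.6 CPM in the ONH and from 1.02 through 1.79 to 4.34 CPM in the ONP (log2FC 1.43 ± 0.45, adjusted p-value 0.0175). The reduced folate carrier Slc19a1 was between 8.51 and 34.3 CPM in the ONH and between 34.9 and 53.4 CPM in the ONP, without overlap (log2FC -1.05 ± 0.23, adjusted p-value 0.00213, edgeR). Of 11 genes of thiamine and folate use, the folate receptor gene Folr1 was higher in the ONH at 30 days (log2FC 3.36), and Shmt1 (-2.27), Thtpa (-0.52) and Mthfd1 (-0.32) were lower.

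The organic ion carriers called at 30 days were Slco1c1, Slco1a5 and Slc22a18 (log2FC 0.90) on the higher side, and Slc47a1 (-2.57), Slco3a1 (-0.80), Slc22a4 (-0.72), Slc22a23 (-0.54) and Slc22a5 (-0.38) on the lower side. Slc22a4 ran from 39.5 through 55.1 to 83.9 CPM in the ONH and from 58.0 through 103 to 149 CPM in the ONP. Slc47a1, which encodes the multidrug exporter MATE1, ran from 0.0432 through 0.432 to 6.13 CPM in the ONH and from 1.29 through 5.12 to 23.0 CPM in the ONP. Without ONH libraries 4 and 7 the calls of Slc47a1 (adjusted p-value 0.0692), Slc22a5 (adjusted p-value 0.0916) and Slc5a11 (adjusted p-value 0.0665) were lost. The organic anion transporter Slc22a6 was just outside the threshold (log2FC -1.76, adjusted p-value 0.0552, edgeR), and it passed when ONH and ONP libraries of the same number were paired. The carriers just inside it were Slc15a4 (adjusted p-value 0.0474), Slc16a7 (0.0459) and Slc22a5 (0.0365).

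Photoreceptor markers were higher in the ONH as well, with 9 of 9 called at 30 days and 8 of 9 at 7 days, beside the pigment cell markers given above. Their part in the values of Folr1, Ttr, Crym, Hk2, Ldha and Bsg, or of other listed genes higher in the ONH, was not tested. Among 9 genes of thyroid hormone handling, 8 were tested. The plasma carrier gene Ttr (log2FC 6.60 at 30 days and 5.44 at 7 days) and the cytosolic hormone binding gene Crym (4.80 and 8.44) were higher in the ONH at both days, Thrsp was lower at 30 days (-1.34) and Hr at 7 days (-0.93). Of 8 genes of choline use, Pemt was higher in the ONH at 30 days (0.55) and Chdh (-1.76), Pcyt1b (-0.89), Cept1 (-0.56), Chka (-0.50) and Chpt1 (-0.44) were lower, with Chdh (-3.19) and Pcyt1b (-1.08) also lower at 7 days. Of 10 genes listed under nucleoside metabolism, the adenosine kinase gene Adk was lower at both days (-0.88 at 30 days and -0.83 at 7 days) and Pnp higher (0.76 and 0.85). Nt5e (-1.09) and Dpp4 (-1.04) were lower at 30 days. Dpp4 is also among the fibroblast and meningeal markers, so it is not particular to nucleoside metabolism. Slc29a2 was also lower in the ONH at 30 days (-0.92 ± 0.25, adjusted p-value 0.00895, edgeR).

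The comparison of 30 vs 7 days asked how the carriers change over time within a region. In the ONP, edgeR called 9 of 69 carriers tested, where 17.0% of all genes were called, with 1 higher at 30 days (background 7.82%) and 8 lower (background 9.21%). The median log2FC was -0.21 for the carriers and -0.01 for all genes. A different scaling mattered here, since library size alone moved the median of all genes to 0.11 and that of the carriers to -0.09. The ONP libraries at 7 days also enter the regional comparison at 7 days.

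**Figure D5:**
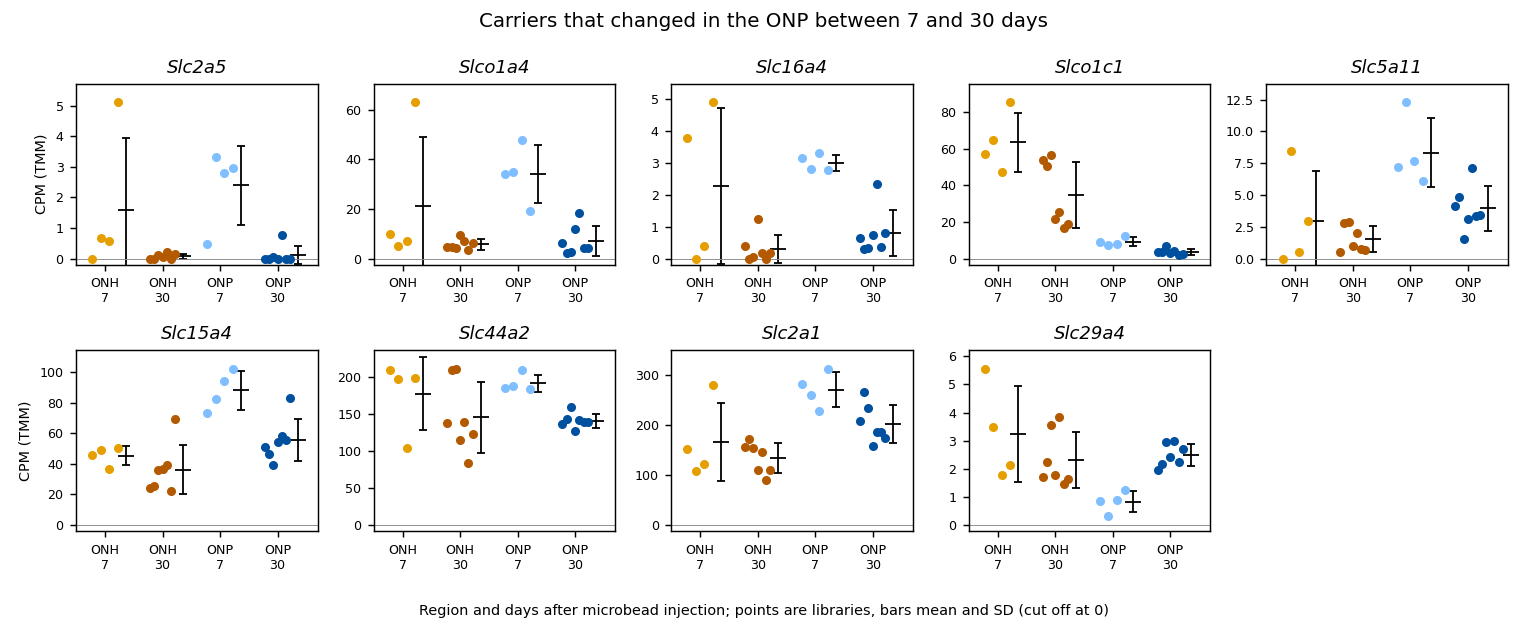
CPM of the 9 carriers that changed in the ONP between 7 and 30 days, 1 panel each, by region and days after injection, with a point for each library and a bar for mean and SD cut off at 0. In the ONP Slco1a4, Slc16a4, Slco1c1 and Slc44a2 were lower in every library at 30 days than in any at 7 days, and Slc29a4 was higher.

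Slco1a4 and Slco1c1, both organic anion transporters known from the brain endothelium, fell in the ONP. Slco1a4 was at 34.0, 35.1, 47.7 and 19.2 CPM at 7 days and ran from 2.06 through 4.24 to 18.3 CPM at 30 days (log2FC -2.29 ± 0.51, adjusted p-value 0.0115, edgeR). Slco1c1 was at 9.08, 7.19, 8.17 and 12.5 CPM at 7 days and ran from 1.86 through 3.47 to 6.70 CPM at 30 days (log2FC -1.38 ± 0.30, adjusted p-value 0.0101). The days did not overlap in either gene. Slc2a1, also abundant in brain endothelium, was at 283, 261, 229 and 313 CPM at 7 days and ran from 159 through 187 to 267 CPM at 30 days, with overlap (log2FC -0.46 ± 0.14, adjusted p-value 0.0415). The call of Slc2a1 was lost without ONP libraries 5 and 7 (adjusted p-value 0.1), whereas Slco1a4 (log2FC -2.64) and Slco1c1 (-1.32) kept theirs.

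Endothelial markers fell in the same comparison. Of 15, 10 were called lower and 0 higher, with a median log2FC of -1.89, and their sum was 273 to 333 CPM at 7 days and 63.7 to 200.3 CPM at 30 days. None of the 15 was at 0 throughout a group. Other marker sums shifted as well. From 7 to 30 days the ONP median went from 90146 to 53408 CPM for oligodendrocytes and from 3230 to 624 CPM for microglia. It went from 506 to 327 CPM for mural cells and from 771 to 320 CPM for fibroblasts and meninges. For astrocytes it rose from 26899 to 36822 CPM, with 2 of 12 markers called higher and 1 lower. The days overlapped in each of these other sums. The part of all these cell types in the values of Slco1a4, Slco1c1, Slc2a1 and the other called carriers was not tested.

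Among the other carriers that fell in the ONP, Slc44a2, a choline transporter-like protein, had the smallest SE. It was at 185, 188, 209 and 184 CPM at 7 days and ran from 127 through 139 to 159.8 CPM at 30 days, without overlap (log2FC -0.47 ± 0.08, adjusted p-value 0.00234, edgeR). Slc15a4 was at 73.2, 82.8, 94.5 and 102 CPM at 7 days and ran from 39.5 through 54.4 to 83.2 CPM at 30 days (log2FC -0.70 ± 0.17, adjusted p-value 0.0157). Slc16a4, an orphan of the monocarboxylate family, was at 3.13, 2.80, 3.28 and 2.77 CPM at 7 days and ran from 0.300 through 0.656 to 2.34 CPM at 30 days (log2FC -1.94 ± 0.51, adjusted p-value 0.0229).

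Slc5a11 was at 7.24, 12.3, 7.64 and 6.11 CPM at 7 days and ran from 1.56 through 3.44 to 7.16 CPM at 30 days (log2FC -1.10 ± 0.34, adjusted p-value 0.0414, edgeR). Of the oligodendrocyte markers, 9 of 12 were called lower in the same comparison, and their part in the value of Slc5a11 was not tested. The fructose transporter Slc2a5 (GLUT5), known from microglia in the brain, was at 0.491, 3.31, 2.79 and 2.96 CPM at 7 days. At 30 days it was listed at 0 in 5 of 7 libraries and reached 0.779 CPM in library 5, 1 of the pair with the highest microglial sums (adjusted p-value 0.022). Without libraries 5 and 7, Slc2a5 did not pass the filter on low counts and was not tested. None of the 12 microglial markers was called in this comparison. Their sum in the ONP nevertheless ran from 2570 through a median of 3230 to 4239 CPM at 7 days. At 30 days it ran from 443 through 624 to 7646 CPM. The part of microglial transcripts in the value of Slc2a5 was not tested.

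Slc29a4, which encodes the plasma membrane monoamine and adenosine transporter PMAT, was the only called carrier that rose in the ONP. It was at 0.859, 0.318, 0.903 and 1.24 CPM at 7 days and between 1.97 and 2.97 CPM at 30 days (log2FC 1.53 ± 0.36, adjusted p-value 0.0138, edgeR). In the ONH it was at 5.55, 3.50, 1.77 and 2.13 CPM at 7 days and ran from 1.45 through 1.77 to 3.85 CPM at 30 days, with overlap (log2FC -0.51, adjusted p-value 0.632). Subtracting the change over time in the ONH from that in the ONP gave 2.05 ± 0.56 for Slc29a4 on the log2 scale, which did not pass (adjusted p-value 0.0903, edgeR). It passed without the ONH libraries that stood apart, with all ONP libraries kept (2.40, adjusted p-value 0.0459).

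Slc13a4 (log2FC 0.47, adjusted p-value 0.215), Slc47a1 (2.17, adjusted p-value 0.0856) and Slco3a1 (-0.63, adjusted p-value 0.0633, edgeR) did not pass in the ONP. Without ONP libraries 5 and 7, 17 carriers were called, 7 of the 9 above and Slc13a4 (log2FC 0.73), Slc2a4 (0.9999) and Slco3a1 (-0.74) among the additions. Genes of the pathway lists called in the ONP included several in each direction. The lactate dehydrogenase genes Ldhb (0.74 ± 0.14, adjusted p-value 0.00466, edgeR) and Ldhd (0.76), Pygb (0.70), Chpt1 (0.92), Uck1 (0.34) and Thrsp (2.26) were higher in the ONP at 30 days, and the thyroid hormone responsive genes Hr (-1.06) and Klf9 (-0.62), the adenosine deaminase gene Ada (-1.98), Nt5e (-0.84), Uck2 (-0.72), Cept1 (-0.45), Nfat5 (-0.59) and the betaine transporter gene Slc6a12 (-2.10) were lower.

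In the ONH, 0 of 64 carriers tested passed between 7 and 30 days with edgeR, and 0 of 15668 genes did (background 0%). Before adjustment, 11 carriers were under 0.05, as were 2179 of all genes. DESeq2 called 1 carrier, Slc2a5, and limma-voom 0. Of the 64 log2FC values, 47 were negative and the median was -0.39, compared with -0.02 for all genes, 51.6% of which were negative. The median of the carriers was -0.14 without ONH library 6 of 7 days and -0.22 with limma-voom or without the libraries that stood apart.

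Several of the most negative values came from carriers with uneven libraries at 7 days. Slc22a8 and Slc22a6 encode the organic anion transporters OAT3 and OAT1, known from the meninges and the blood-brain barrier. Slc22a8 was at 57.8, 12.2, 2.05 and 313 CPM at 7 days and ran from 4.75 through 11.7 to 34.4 CPM at 30 days (log2FC -2.67, adjusted p-value 0.246). Slc22a6 was at 13.7, 3.35, 2.57 and 66.3 CPM at 7 days and ran from 0.173 through 2.16 to 14.2 CPM at 30 days (log2FC -2.57, adjusted p-value 0.281). Slco1a4 was at 9.92, 5.03, 7.19 and 63.0 CPM at 7 days and between 3.35 and 9.51 CPM at 30 days (log2FC -1.93, adjusted p-value 0.202), and Slc2a12 was at 14.6, 2.78, 3.19 and 39.6 CPM and between 0.854 and 5.27 CPM (log2FC -1.99, adjusted p-value 0.235, all edgeR). In each of these genes library 6 at 7 days was the highest. The sum of fibroblast and meningeal markers was also highest there, at 3293 CPM against 1354 to 1774 CPM in the other 3. So were the oligodendrocyte, microglial, mural, photoreceptor and pigment cell sums among the ONH libraries at 7 days. The part of these cell types in the values of these genes was not tested. Without the libraries that stood apart the log2FC of Slc22a8 was -1.45, of Slc22a6 -1.14, of Slco1a4 -0.67 and of Slc2a12 -1.18. Slco1c1 (log2FC -0.89, adjusted p-value 0.29) and Slc13a4 (-0.89, adjusted p-value 0.35) did not pass either, and nor did any gene of the pathway lists.

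Other carriers with known roles in glia or barriers did not pass in any comparison in the main edgeR fit. With limma-voom, Slc16a3 passed in the ONP at 30 vs 7 days and between regions at 30 days, and Slc19a3 passed in the ONP with limma-voom and with DESeq2. With edgeR, Slc16a3 passed in both comparisons without ONP library 7 of 30 days. In the ONP it also passed without ONP libraries 5 and 7. These libraries held 11.2 and 16.6 CPM of Slc16a3, and the other ONP libraries at 30 days 1.66 to 4.34 CPM. The lactate exporter Slc16a3 (MCT4) had a median of 10.8 CPM in the ONH and 12.2 CPM in the ONP at 7 days, and of 9.98 and 4.02 CPM at 30 days. The nucleoside transporter Slc29a1 (ENT1) was between 5.93 and 38.3 CPM in the ONH and between 11.8 and 35.5 CPM in the ONP. The dicarboxylate transporter Slc13a3 was between 4.66 and 73.6 CPM in the ONH and between 4.58 and 35.5 CPM in the ONP. These ranges overlapped between regions. The thiamine transporters Slc19a2 and Slc19a3 had means between 6.83 and 11.2 CPM and between 0.464 and 1.65 CPM in the 4 groups. The prostaglandin transporter Slco2a1 had group means between 0.684 and 3.35 CPM. The organic cation transporter Slc22a3 was at or under 3 counts in 17 of 22 libraries and entered no comparison, and the nucleoside transporter Slc28a2 was at or under 3 counts in all 7 ONH libraries at 30 days.

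Whether the change over time differed between the regions was tested with an interaction contrast. It called 0 of 71 carriers with edgeR, where 0.543% of all genes were called (0.149% higher and 0.394% lower). Before adjustment 9 carriers were under 0.05, as were 2103 of all genes. Slc29a4 was the 1 carrier that DESeq2 called, and limma-voom called 0. The median difference, ONP minus ONH, was 0.19 for the carriers and 0.01 for all genes. It had no stable sign, with -0.10 by limma-voom, -0.17 without ONH library 6 of 7 days and -0.06 for genes with at least 10 counts in every library. Slc47a1 had the largest value (4.22 ± 1.63, adjusted p-value 0.275, edgeR), followed in size by Slc28a2 (3.49), Slc5a7 (-3.31), Slc22a2 (2.94), Slc22a6 (2.43), Slco5a1 (-2.34) and Slco1a5 (2.20), and none of these passed. The value of Slc47a1 was 2.55 without the ONH libraries that stood apart, with all ONP libraries kept. In the pathway lists the nuclear receptor corepressor gene Hr passed (-0.89 ± 0.21, adjusted p-value 0.0491).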

How the data were processed

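Ribosome-bound RNA was pulled down with anti-HA beads from the ONH and ONP, and sequenced after Smart-Seq HT amplification. The deposited values are estimated counts per gene, written as whole numbers, which the authors made with STAR 2.6.1d on mm10, Salmon 0.14.2 on Ensembl 94 transcripts and tximport. Salmon shares reads among related transcripts, so counts of close paralogs are uncertain, and use of strand was not given in the sources used here. A second deposited table, a log2 variance stabilizing transformation made by the authors with DESeq2 1.34.0, was not used.

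Columns at 7 days carry numbers that do not match the sample titles and were assigned to region and day only. Genes passing edgeR's filterByExpr were scaled by TMM and tested with edgeR 4.0.16 (R 4.3.3, quasi-likelihood, two-sided), with the 2 groups of each comparison in a fit and all 4 in the interaction, and Benjamini-Hochberg adjustment over all genes (threshold 0.05). DESeq2 1.42.0, limma 3.58.1 (voom), other scalings, filters, a joint fit, a replicate block and leaving out each library were alternatives. The edgeR step was tested on simulated counts. CPM uses TMM-scaled library sizes, and lengths and positions come from GENCODE M21. Figures were drawn with matplotlib 3.10.9.

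The members and lists were chosen with earlier results of these data known. Named were the carriers called in any comparison (for more than 20 calls, the 10 largest increases and decreases, with others by symbol and log2FC), the 12 with the highest CPM per kb, and carriers with a textbook role in glia or barriers. Results for some genes that met these rules are not reported here. At 30 days ONH and ONP libraries of the same number were taken to come from the same mice, which the labels do not state. Their deviations from the group means correlated with r = 0.106 to 0.537 in the 7 pairs. For 3 of the 7 ONH libraries, the ONP library of the same number was the best match. Libraries are pools of separate mice, and depth was 16292489 to 33307092 counts per library.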

Additional observations from a re-analysis of the deposited data

Results flagged for a closer look

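A library that lay far from the rest of its group, by Dixon's gap test at the 95% level, was found in 12 of the 156 groups of 4 or 7 libraries examined for the 39 called carriers (7.69%), where chance gives about 1 in 20. Among the ONH libraries at 7 days, library 1 was high for Slc13a5 (5.44 CPM, others 3.25 to 3.44), library 3 was high for Slc16a14 (1.71 CPM, others 0 to 0.0539) and for Slc5a7 (0.0299 CPM, others 0), and library 5 was low for Slc44a2 (103.5 CPM, others 198 to 209.6). The value of Slc5a7 is 1 count.

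In the ONP at 7 days, library 1 was low for Slc2a5 (0.491 CPM, others 2.79 to 3.31) and high for Slc45a2 (0.429 CPM, others 0), and library 5 was low for Slc5a5 (1.64 CPM, others 4.54 to 5.28). In the ONP at 30 days, library 5, with a microglial sum of 5896 CPM, was high for Slc16a4 (2.34 CPM, others 0.300 to 0.7997) and for Slc2a5 (0.779 CPM, others 0 to 0.0559). Library 1 of that group was high for Slc44a5 (4.64 CPM, others 1.46 to 2.39), and library 3 was low for Slc5a5 (1.56 CPM, others 4.19 to 7.53). In the ONH at 30 days, library 7, with a microglial sum of 7022 CPM, was high for Slc29a3 (40.3 CPM, others 14.2 to 20.3).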

How the results depend on the processing

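In the ONP at 30 vs 7 days, where 9 carriers were called, DESeq2 called 14, a joint fit of all 4 groups 4, and a fit without the libraries that stood apart, chosen after seeing the data, 17. Leaving out 1 library at a time gave 4 to 10, with 4 without ONP library 6 of 7 days, which lost Slc15a4, Slc16a4, Slc2a1, Slc2a5 and Slc5a11. The call of Slc2a1 held in 6 of 19 settings and that of Slc5a11 in 7 of 19, and those of Slco1a4 and Slco1c1 held in all 19. For ONH vs ONP at 7 days, leaving out 1 library gave 9 to 18 calls against 14, with 9 without ONP library 6. For ONH vs ONP at 30 days it gave 29 to 34 against 34. In the ONH at 30 vs 7 days DESeq2 called 1. In the interaction DESeq2 called 1, and the fit without the ONH libraries that stood apart called 1. Leaving out 1 library gave 0 to 2, with 2 (Slc13a4 and Slc29a4) without ONH library 5 of 7 days. The cause of these shifts was not tested. The log2FC of Slc16a1 between regions at 30 days turned negative with limma-voom (-0.0299) and without a filter (-0.0034), and ran from -0.0615 to 0.128 when 1 library was left out. Over all genes, the ONH called 0 at 30 vs 7 days against 446 with DESeq2 and 292 in the joint fit, and the ONP 2638 against 1189 in the joint fit.

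With the 30 day libraries paired by number (replicate block), 37 carriers were called against 34, with all 34 kept. The other comparisons use the 7 day columns. The numbers of these columns do not match those in the sample titles and could not be tied to mice. No paired analysis of these other comparisons was therefore possible. Depth limits carriers near 3 counts, such as Slc5a7 and Slc22a3.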
